A study of Mus musculus with 6 samples.

Results

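The 10 genes described here encode negative regulators of mitogen-activated protein kinase (MAPK) signalling. They are the dual-specificity phosphatases Dusp1, Dusp4, Dusp5, Dusp6, Dusp8, Dusp10 and Dusp16 and the Sprouty-family proteins Spry2, Spry4 and Spred1. They were picked by name for this function from the 54446 genes of the deposited table, with earlier results of these data known, and all 10 were among the 14956 genes tested, which had at least 10 counts in at least 2 libraries. Expression was measured by sequencing of poly(A) RNA from TRAMP-C2 cells, a mouse line derived from a prostate tumour of a TRAMP animal, in which the probasin promoter drives SV40 T antigen in prostate epithelium. The study treated prostate cancer cells with platinum drugs to learn how these agents alter gene expression. Control cells received no agent, oxaliplatin cells received 2 µM oxaliplatin and cisplatin cells received 2 µM cisplatin, each for 24 h and with 2 libraries per group. For all groups the labels give strain C57BL/6, male sex and 1 culture medium with serum, bovine insulin and dehydroisoantrosterone (spelled as in the labels). All groups are 1 cell line, and whether the 2 libraries of a group came from separate cultures was not given in the sources used here, so that p-values measure the spread between libraries, which may be technical.

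The MAPKs ERK, JNK and p38 carry growth factor and stress signals from the cell surface to the nucleus and are active when phosphorylated on a threonine and a tyrosine. Dual-specificity MAPK phosphatases remove both phosphates, and several of their genes are themselves transcribed in response to MAPK activity, which closes a negative feedback loop. Sprouty and Spred proteins act further upstream, between receptor tyrosine kinases and Ras or Raf. DUSP1, DUSP4 and DUSP5 are nuclear enzymes, of which DUSP5 is selective for ERK. DUSP6 is cytoplasmic and also selective for ERK, whereas DUSP8, DUSP10 and DUSP16 act preferentially on JNK and p38.

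Promoter sequences are shown for the 3 members in which a motif searched for was found, since transcription of these genes is known to follow the signals that their products restrain. The 250 bases before 1 RefSeq start site per gene (assembly GRCm38.p6) were searched on both strands in 32851 windows, among them those of 8 members. Dusp4 and Spry4 had no window. The cyclic AMP response element (CRE) TGACGTCA, a site for CREB and ATF factors, was in 1.55% of all windows and in those of Dusp1 and Dusp8. The CArG box, a site for serum response factor, was in 1.47% of all windows and in that of Dusp5. The AP-1 site TGANTCA (6.75% of all windows), the ETS site CCGGAAGT (2.88%) and the TATA box TATAAA (12.4%) were found in 0 of the 8 members, which says only that these letters are not in this window. Capitals mark the matches, each stretch is printed 5′ to 3′ on the strand of its gene, and the stretches lie on the minus strand at chr17:26508588-26508635 for Dusp1, on the plus strand at chr19:53529043-53529102 for Dusp5 and on the minus strand at chr7:142095320-142095411 for Dusp8.
Dusp1: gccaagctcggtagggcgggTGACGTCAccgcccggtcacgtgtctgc
Dusp5: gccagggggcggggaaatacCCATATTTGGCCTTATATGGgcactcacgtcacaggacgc
Dusp8: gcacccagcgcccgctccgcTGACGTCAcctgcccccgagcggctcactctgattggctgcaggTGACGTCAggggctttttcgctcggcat

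The Dusp1 promoter thus held 1 CRE, from 143 to 136 bases before the start site. The Dusp8 promoter held 2, the nearer of them from 63 to 56 bases before the start site used, and the Dusp5 promoter held 2 adjoining CArG boxes. The Dusp8 start site used is not the outermost 1, so that its stretch lies within the span of the gene in RefSeq (chr7:142079487-142095907). In GENCODE M21 the Dusp1 and Dusp8 stretches also lie in an intron of a longer transcript of the same gene, and the Dusp5 stretch lies in an exon of the antisense gene AC137853.2. The windows of the 8 members were 56.4% to 71.6% G and C, against a median of 52.4% over all windows. These matches are a description of the letters, and binding of any factor was not measured.

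Libraries held 21345312 to 24041767 counts, so that 3 counts correspond to a CPM (counts per library total) of 0.125 to 0.141. A normalised count is the deposited count divided by the library's DESeq2 size factor (0.964 to 1.08), and a gene is called when the DESeq2 Wald test gives a Benjamini-Hochberg adjusted p under 0.05 over all tested genes. Of the prostate epithelial markers, Cdh1, Krt8 and Krt18 had at least 95.1 normalised counts in each library, while Epcam and Hoxb13 had at most 2.96. The mesenchymal markers Vim and Fn1 had at least 52895 in each, and Cdh2 had 7004 to 7201. Ptprc, Cd3e, Adgre1 and Cdh5, which mark leukocytes and endothelium, had at most 1.02 in any library, Pecam1 had 1.02 to 7.84 and Cd68 had 30.7 to 50.0. With cisplatin Cdh1 (E-cadherin) rose by 0.53 ± 0.14, Vim rose by 0.28 ± 0.04 and Fn1 fell by 0.26 ± 0.08 (log2 ± SE, called by DESeq2 with Benjamini-Hochberg adjustment), and the part of these shifts in the results on the 10 genes was not tested.

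**Figure D1:**
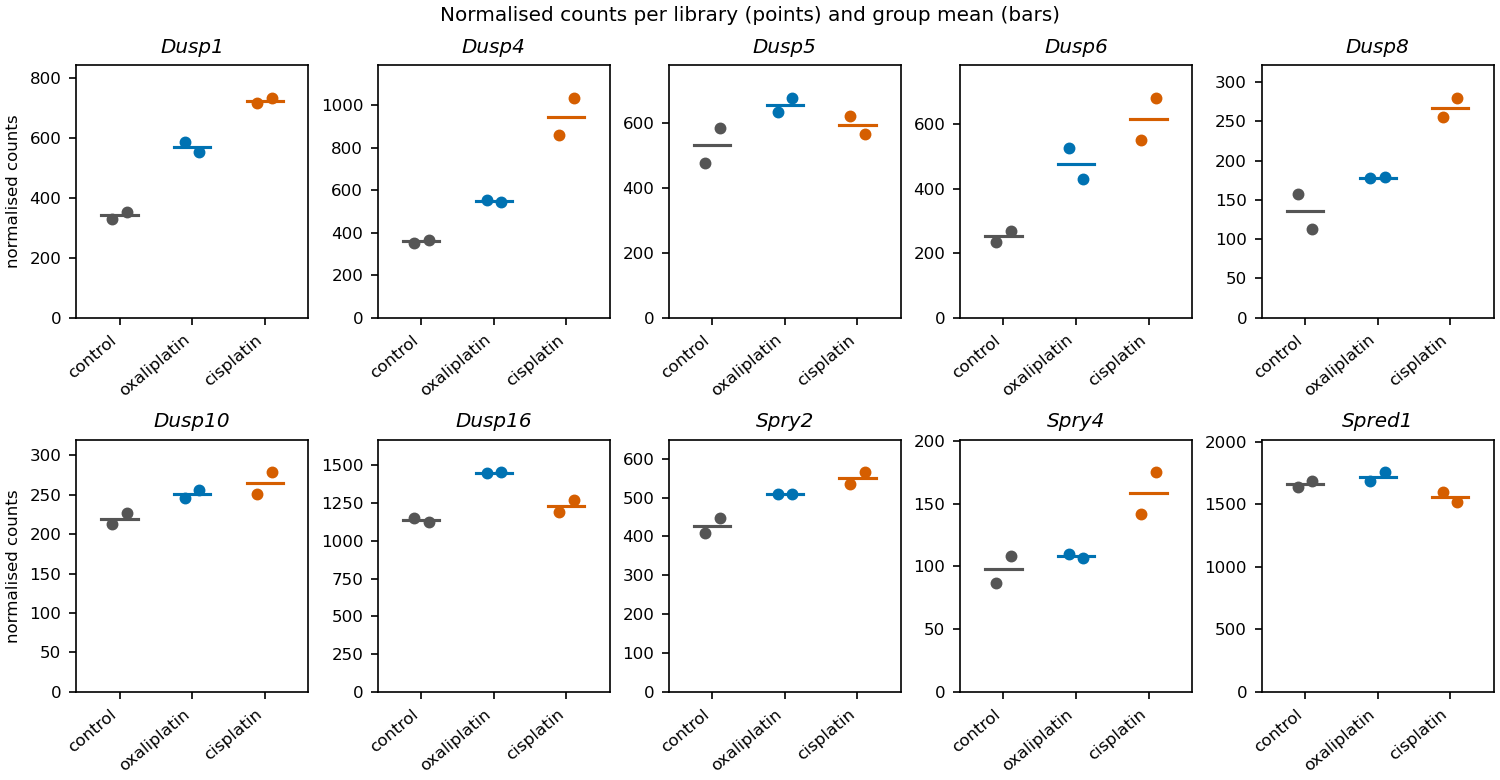
Normalised counts (vertical axes, linear from 0) of the 10 genes in each group (horizontal axes), with a point for each of 2 libraries and a bar for the group mean. Dusp1, Dusp4 and Dusp6 were lowest in both control libraries, with control means of 341, 359 and 252 and cisplatin means of 724, 946 and 615, whereas Spred1 stayed between 1519.5 and 1754.

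Oxaliplatin against control asked which of these brakes respond to the drug at low dose. Dusp1, Dusp4, Dusp6 and Dusp16 rose 1.27-fold to 1.90-fold, and the other 6 genes did not pass the test. Of the 10 genes 4 were called higher and 0 lower, where 10.7% of all tested genes were called higher and 9.50% lower. The median log2 fold change of the 10 was 0.33, against -0.00 over all tested genes. In RNA from whole cultures, more cells with a transcript and more transcripts per cell cannot be told apart.

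Dusp1 (chromosome 17), an immediate early gene whose product acts on p38, JNK and ERK, had 330.0 and 352 normalised counts in control and 587 and 551 in oxaliplatin libraries. Both treated libraries were above both controls, and Dusp1 rose by a log2 fold change of 0.74 ± 0.12 (SE, 2 libraries per group, DESeq2 Benjamini-Hochberg adjusted p = 5.73e-08). Dusp4 (chr8:34807297-34819894, GRCm38), its inducible nuclear relative, had 353 and 365 in control and 555 and 543 in oxaliplatin cells. These groups did not overlap either, and Dusp4 rose by 0.61 ± 0.13 (DESeq2 Benjamini-Hochberg adjusted p = 5.49e-05). Dusp6 (chr10:99263231-99267489) is the ERK phosphatase widely read as a marker of ERK pathway output. It had 236 and 268 in control and 525 and 429.8 in oxaliplatin cells, with a wider gap between the treated libraries than between the controls. Its rise of 0.92 ± 0.17 was the largest of the 10 (DESeq2 Benjamini-Hochberg adjusted p = 1.44e-06). Dusp16 (chr6:134715468-134792625), which encodes a JNK and p38 phosphatase that shuttles between nucleus and cytoplasm, had 1153 and 1124 in control and 1446 and 1452 in oxaliplatin cells. The treated libraries lay close together above both controls, and Dusp16 rose by 0.35 ± 0.08 (DESeq2 Benjamini-Hochberg adjusted p = 1.59e-04). These 4 calls were kept under each of 14 alternative settings, which included leaving out each library in turn.

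The remaining members were not called for oxaliplatin. Dusp5 (chr19:53529109-53542431) had 477 and 582 in control and 633 and 675 in oxaliplatin libraries. The treated libraries were the higher, but the controls lay far apart, and the difference of 0.30 ± 0.13 had an adjusted p of 0.0842 by DESeq2 with Benjamini-Hochberg adjustment. Without control replicate 2 it was called (0.46, adjusted p = 0.0460), as it was by edgeR (adjusted p = 0.0329), and over the 14 settings the adjusted p ran from 0.0329 to 0.565. Spry2 (chr14:105891947-105896819), which restrains receptor tyrosine kinase signalling to ERK, had 409.9 and 446 in control and 509 and 509.6 in oxaliplatin cells. Its difference of 0.25 ± 0.13 was not called by DESeq2 (Benjamini-Hochberg adjusted p = 0.141) but was by edgeR's quasi-likelihood test (adjusted p = 0.0180), and the 14 settings gave 0.0180 to 0.530. Dusp8 differed by 0.40, with a 95% interval of -0.04 to 0.85, and by 0.67 without control replicate 1 and 0.18 without control replicate 2. The other 3 differences were 0.19 for Dusp10, 0.14 for Spry4 and 0.05 for Spred1. Spry4 differed by 0.31 without control replicate 2 and by -0.0027 without control replicate 1, and Spred1 by 0.02 without oxaliplatin replicate 2 and 0.08 without oxaliplatin replicate 1. For Spry4 the libraries of the groups overlapped, and for Spred1 the 95% interval of the difference ran from -0.09 to 0.19.

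After cisplatin, 6 of the 10 genes were called higher and 0 lower, where 15.7% of all tested genes were called higher and 12.4% lower. Dusp1, Dusp4, Dusp6 and Dusp8 rose 1.98-fold to 2.64-fold, and Spry2 and Spry4 rose by less. The median log2 fold change was 0.53, against -0.00 over all tested genes. With total counts in place of size factors the split over all genes turned from 2355 higher and 1848 lower to 1826 and 2382, while the calls of the 10 genes and their directions were kept.

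Dusp4 had 859.7 and 1032 normalised counts in the cisplatin libraries. Each was above every control and oxaliplatin library, and its rise over control of 1.40 ± 0.13 was the largest of the 10 (DESeq2 Benjamini-Hochberg adjusted p = 2.05e-24). Dusp6 had 550.0 and 680.5 and rose by 1.29 ± 0.17, and Dusp1 had 716 and 732 and rose by 1.09 ± 0.12 (DESeq2 Benjamini-Hochberg adjusted p = 1.82e-12 and 4.60e-17). These were 2.44 and 2.12 times their control levels, with no overlap between libraries. Dusp8 (chr7:142079490-142095843), a JNK and p38 phosphatase, had 158 and 112 in control, 177 and 179 in oxaliplatin and 255 and 279 in cisplatin libraries. The cisplatin libraries were the highest, and Dusp8 rose by 0.99 ± 0.22 (DESeq2 Benjamini-Hochberg adjusted p = 8.14e-05). These 4 calls were kept under all 14 settings.

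Both Sprouty genes rose after cisplatin in the fit of all libraries. Spry2 had 535 and 565 in cisplatin cells, above all control and oxaliplatin libraries, and rose by 0.36 ± 0.13 (DESeq2 Benjamini-Hochberg adjusted p = 0.0165). Spry4 (chromosome 18), which like Spry2 restrains signalling from receptors to ERK, had 87.2 and 108 in control, 109.5 and 106 in oxaliplatin and 142 and 175 in cisplatin cells. It rose by 0.70 ± 0.26 (DESeq2 Benjamini-Hochberg adjusted p = 0.0280), with the lowest counts of the 10 genes. Leaving out any 1 of the 6 libraries ended both calls (adjusted p 0.0753 to 0.259 for Spry2 and 0.0800 to 0.385 for Spry4). The highest of these adjusted p values came without cisplatin replicate 2 for both genes. A fit with the replicate number as a block ended them as well (0.0881 and 0.107), and so did a fit of only the 4 libraries compared for Spry4 (0.0535).

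Dusp5, Dusp10, Dusp16 and Spred1 were not called for cisplatin. Dusp10 (chr1:184013302-184075636), another JNK and p38 phosphatase, had 213 and 227 in control, 246 and 256 in oxaliplatin and 251 and 278 in cisplatin libraries. Both drugs' libraries were above the controls, but the cisplatin difference was 0.27 ± 0.18 (DESeq2 Benjamini-Hochberg adjusted p = 0.257, edgeR 0.0425, range over the 14 settings 0.0425 to 0.696). Dusp16 had 1193 and 1267 in cisplatin cells, a difference of 0.11 with a 95% interval of -0.05 to 0.27. Dusp5 had 619.6 and 564, and the second of these lay between the controls (difference 0.16, interval -0.11 to 0.43). Spred1 (chr2:117121374-117182279), whose product brings neurofibromin to the membrane to switch off Ras, had 1635 and 1684 in control, 1688 and 1754 in oxaliplatin and 1598 and 1519.5 in cisplatin libraries. It was the only member below control after cisplatin, by a difference of -0.09 with an interval of -0.23 to 0.05.

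**Figure D2:**
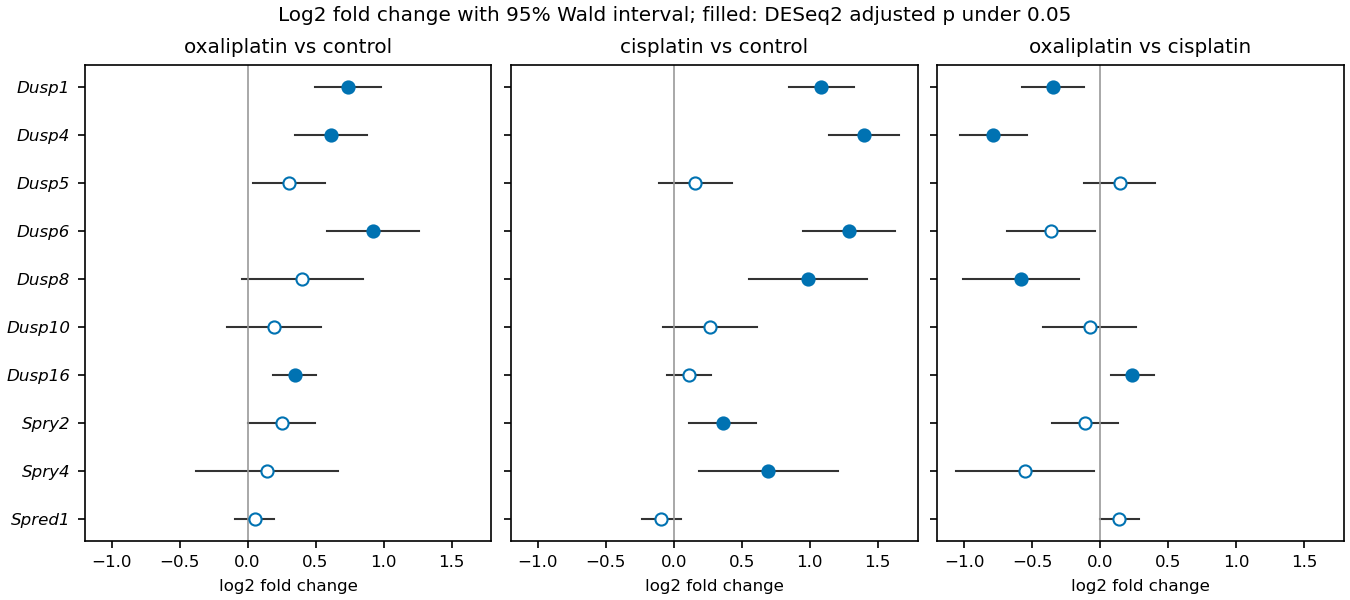
Log2 fold change (horizontal axes) of each of the 10 genes (vertical axis) in the 3 contrasts, with a point for the estimate, filled where the DESeq2 adjusted p was under 0.05, and a line for the 95% Wald interval. The 4 filled points for oxaliplatin and the 6 for cisplatin lie to the right of 0, and in the direct contrast Dusp4 lies at -0.78 and Dusp16 at 0.24.

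Oxaliplatin and cisplatin were compared directly at the same dose and time. Cisplatin carries ammine and chloride ligands on platinum, whereas oxaliplatin carries a diaminocyclohexane ligand and oxalate. Dusp1, Dusp4 and Dusp8 were lower with oxaliplatin and Dusp16 was higher, so that 3 of 10 genes were called lower and 1 higher, where 11.3% of all tested genes were called lower and 8.62% higher. Dusp4 differed most, at 549 ± 8.31 normalised counts (mean ± SD) with oxaliplatin and 946 ± 122 with cisplatin, a log2 difference of -0.78 ± 0.13 (DESeq2 Benjamini-Hochberg adjusted p = 2.03e-08). This was the only 1 of the 4 calls kept under all 14 settings.

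Dusp1 averaged 569 ± 25.6 with oxaliplatin and 724 ± 11.3 with cisplatin, and Dusp8 averaged 178 ± 1.25 and 267 ± 17.3. For both genes every cisplatin library was above every oxaliplatin library, and the differences were -0.35 ± 0.12 and -0.58 ± 0.22 (DESeq2 Benjamini-Hochberg adjusted p = 0.0159 and 0.0329). Dusp16 ran the other way, with means of 1449 ± 4.07 and 1229.9 ± 52.1 and a difference of 0.24 ± 0.08 (DESeq2 Benjamini-Hochberg adjusted p = 0.0161). Each of these 3 calls was lost when any 1 of the 4 drug libraries was left out: oxaliplatin replicate 1 or 2, or cisplatin replicate 1 or 2. The adjusted p was then 0.162 to 0.309 for Dusp1, 0.204 to 0.270 for Dusp8, for which DESeq2 gave none without cisplatin replicate 2, and 0.102 to 0.334 for Dusp16. The replicate block ended the 3 calls too (0.114, 0.140 and 0.107), and testing without a filter on low counts ended that of Dusp8 (0.0573).

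The other 6 genes were not called between the drugs, which does not show that the drugs acted alike on them. Dusp6 averaged 478 ± 67.6 with oxaliplatin and 615 ± 92.3 with cisplatin, and its difference of -0.36 had a 95% interval of -0.69 to -0.04 (DESeq2 Benjamini-Hochberg adjusted p = 0.0921, edgeR 0.0430, range over the 14 settings 0.0430 to 0.632). Spry4 differed by -0.55, with an interval of -1.06 to -0.05 (DESeq2 Benjamini-Hochberg adjusted p = 0.105, edgeR 0.0209, range over the settings that gave one 0.0209 to 0.283). Both intervals lay wholly below 0, but unlike the adjusted p they take no account of the number of genes tested. The intervals were -0.35 to 0.13 for Spry2, -0.42 to 0.26 for Dusp10, -0.12 to 0.41 for Dusp5 and -0.00 to 0.29 for Spred1. The Spred1 difference of 0.14 was called by edgeR only (adjusted p = 0.0341, range over the 14 settings 0.0341 to 0.604).

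Levels per length, as TPM (a gene's share of all length-corrected counts) over the summed exon length in GENCODE M21, gave the order of the 10 genes within a group. The Dusp1 exon length used, 3311 bases, exceeds its whole RefSeq span of 2882, so that its place may depend on the gene model. In control cells Spred1 was first with 31.2 ± 1.03 TPM (mean ± SD, n = 2), followed by Dusp5 with 27.3 ± 4.16 and Spry2 with 26.1 ± 1.90, the latter pair with overlapping libraries. Dusp16 (18.6), Dusp4 (16.7), Dusp1 (13.1), Dusp6 (10.2) and Dusp10 (9.20) came next, of which the libraries of Dusp6 and Dusp10 overlapped. Dusp8 at 3.53 and Spry4 at 2.62 TPM were the least abundant in every group. With oxaliplatin Dusp5 led at 32.4 and 34.3 TPM, overlapping Spred1 at 31.5 and 32.4. With cisplatin Dusp4 moved from the fifth place to the first, at 41.9 ± 6.01 TPM, and Spred1 moved to the fourth at 27.9 ± 0.59.

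**Figure D3:**
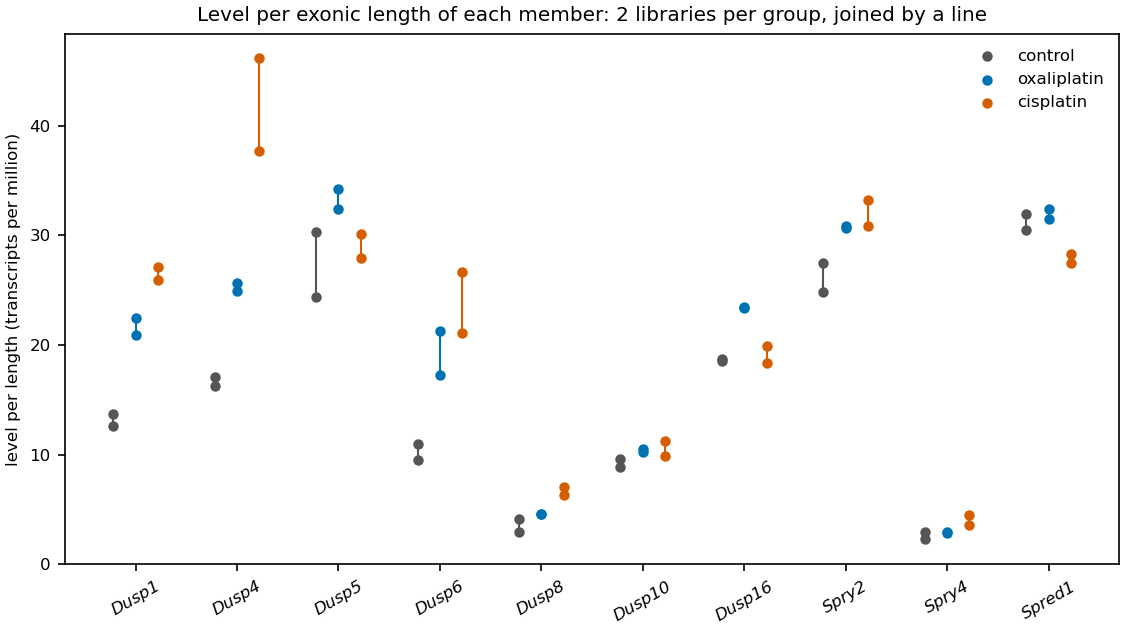
Level per exonic length in TPM (vertical axis, linear from 0) of the 10 genes (horizontal axis) in control, oxaliplatin and cisplatin libraries, with the 2 libraries of a group joined by a line. Dusp4 runs from a mean of 16.7 in control to 41.9 with cisplatin, while Dusp8 and Spry4 reach at most 7.03 in any library.

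The transcripts also differ in features that the choice of genes did not use. The 3′ untranslated region of Dusp1 held 4 ATTTA pentamers, the core of AU-rich elements that mark short-lived messages, in 690 bases. Its density of 5.80 per kb was above that of 95.9% of 12450 genes, whose median was 1.34. Spred1, which was not called in any contrast, held 12 in 4330 bases (2.77 per kb), and Dusp6 held 1 in 1190. By RefSeq the gene bodies ran from 2882 bases for Dusp1, 4259 for Dusp6 and 4873 for Spry2 to 61209 for Spred1 and 91596 for Dusp16. GENCODE M21 draws a Dusp1 model of 56539 bases, with an exon that overlaps Ergic1 on the other strand, and its version differs from that in the deposited table. Ergic1 averaged 5240.4 normalised counts in control and differed by 0.16 with oxaliplatin and 0.04 with cisplatin on the log2 scale, where Dusp1 rose by 0.74 and 1.09. Dusp5 and Dusp8 overlap the antisense gene AC137853.2 and the long noncoding gene Gm32786 (0.33 normalised counts over all libraries), and whether counting used strand was not given in the sources used here.

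Closest to the 10 genes are their paralogs. Of 7 further MAPK phosphatase, Sprouty and Spred genes listed, 5 were tested, Dusp2 was under the filter at 0 to 4.15 normalised counts, and Spry3 was not analysed here. Dusp9, a cytoplasmic ERK phosphatase, had 128 and 127 in control, 129 and 121 in oxaliplatin and 219.6 and 256 in cisplatin libraries. It rose with cisplatin by 0.90 ± 0.22 and was lower with oxaliplatin than with cisplatin by -0.93 ± 0.22 (DESeq2 Benjamini-Hochberg adjusted p = 2.45e-04 and 1.95e-04). It was the only gene of the list called, and the list held 0 calls for cisplatin without cisplatin replicate 2 and 0 between the drugs without cisplatin replicate 1 or 2. Of all tested genes 15.7% were called higher with cisplatin than in control, and 11.3% lower with oxaliplatin than with cisplatin. Spry1, Spred2, Spred3 and Dusp7 were not called in any contrast by DESeq2. Spry1, which like Spry2 restrains receptor signalling, had 178 and 167 in control, 255 and 223 in oxaliplatin and 221 and 229 in cisplatin libraries, a difference of 0.47 ± 0.19 for oxaliplatin (DESeq2 Benjamini-Hochberg adjusted p = 0.0565) and 0.38 ± 0.19 for cisplatin, and edgeR called it for both drugs. Differences for oxaliplatin and cisplatin were -0.15 and -0.15 for Dusp7, 0.02 and 0.11 for Spred2, and 0.27 and 0.02 for Spred3.

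Among 15 other dual-specificity phosphatases, 10 were tested. For oxaliplatin 2 were higher and 0 lower, and for cisplatin 2 were higher and 2 lower. Shares of all tested genes were 10.7% higher and 9.50% lower for oxaliplatin and 15.7% and 12.4% for cisplatin, so that the cisplatin counts were near the background. The 2 that rose with each drug were Dusp3, a small phosphatase also called VHR, by 0.72 ± 0.09 and 0.67 ± 0.09, and Dusp14 by 0.51 ± 0.15 and 0.59 ± 0.15. Without either control library or either oxaliplatin library, 1 rather than 2 was called for oxaliplatin, and for cisplatin 2 rather than 4 were called without cisplatin replicate 1. Dusp11, which acts on RNA, fell with cisplatin by 0.24 ± 0.06. Dusp23, named after its values were seen, fell with cisplatin by 0.96 ± 0.35 from at most 88.2 normalised counts. For oxaliplatin Dusp23 differed by -0.70 ± 0.34, which DESeq2 did not call (Benjamini-Hochberg adjusted p = 0.121) but edgeR did (adjusted p = 0.0154). Directly compared, 1 was called, Dusp11, which was 0.28 ± 0.06 higher with oxaliplatin. In that contrast 8.62% of all tested genes were called higher and 11.3% lower. Styx differed by 0.27 ± 0.12 and Dusp18 by -0.13 ± 0.11 for oxaliplatin, and Dusp12 by 0.17 ± 0.18 for cisplatin, none of them called by DESeq2, while edgeR called Styx. The list medians were 0.04 and 0.05, near those of all genes.

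Among 16 genes known to follow ERK activity, such as Myc, Ccnd1 and Fosl1, 10 were higher and 0 lower with oxaliplatin, and 10 were higher and 0 lower with cisplatin, beside the shares of all tested genes of 10.7% higher and 9.50% lower for oxaliplatin and 15.7% and 12.4% for cisplatin. The list medians were 0.49 and 0.72. With each drug 6 of the 16 were not called by DESeq2. Named after their values were seen, Etv5 differed by -0.13 and 0.12 and Egr3 by -0.23 and 0.09, none of them called. Egr1, also named after its values were seen, was called higher with oxaliplatin (0.43 ± 0.16) but not with cisplatin (0.07 ± 0.16). Ier3, an immediate early gene, had 569 and 594 normalised counts in control, 869 and 828 in oxaliplatin and 1738 and 1829 in cisplatin libraries, and rose by 0.55 ± 0.09 and 1.62 ± 0.09. Ccnd1 (cyclin D1) rose by 0.39 ± 0.05 and 0.95 ± 0.05, Myc by 0.59 ± 0.08 and 0.99 ± 0.08, and Phlda1 by 0.66 ± 0.11 and 1.23 ± 0.11. Fosl1, an AP-1 subunit, rose by 0.84 ± 0.11 and 0.88 ± 0.11, and the receptor Epha2 by 0.82 ± 0.07 and 0.61 ± 0.07. Directly compared, 5 of the 16 were lower with oxaliplatin, namely Ier3, Ccnd1, Phlda1, Myc and, named after its values were seen, Ier2. Only Epha2 was higher, by 0.21 ± 0.07. Of all tested genes 11.3% were called lower and 8.62% higher with oxaliplatin than with cisplatin.

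Calls among genes of the cascade itself went in both directions, and for either drug their share was near that of all tested genes. Of 31 kinases, Ras proteins and adaptors, 3 were higher and 4 lower with oxaliplatin, 7 were higher and 3 lower with cisplatin, beside 10.7% and 9.50% of all tested genes for oxaliplatin and 15.7% and 12.4% for cisplatin. The list medians were 0.01 and 0.00. With oxaliplatin the Raf kinase gene Araf rose by 0.30 ± 0.08, while the adaptor gene Shc1 fell by 0.32 ± 0.05. Map3k5, which encodes the stress kinase ASK1, fell by 0.57 ± 0.11 with either drug. With cisplatin Hras rose by 0.41 ± 0.10, Map2k3 by 0.26 ± 0.06 and Ptpn11 by 0.18 ± 0.05. Named after their values were seen, other genes of these counts were Hras (higher) and Mapk3 and Mapk9 (lower) for oxaliplatin, and Mapk9 and Map3k4 (lower) for cisplatin. Directly compared, 2 genes were higher with oxaliplatin, among them Map3k4, also named after its values were seen, and 6 were lower. In that contrast 8.62% of all tested genes were called higher and 11.3% lower. Without any 1 of the 6 libraries the calls of this list numbered 2 to 4 rather than 7 for oxaliplatin and 3 to 5 rather than 10 for cisplatin. Between the drugs they numbered 1 to 4 rather than 8 without a drug library.

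Of 10 other inhibitors of this pathway, 0 were higher and 1 lower with oxaliplatin, which was Rasa3, a Ras GTPase activator, at -0.27 ± 0.10. These oxaliplatin counts were near the shares of all tested genes, 10.7% higher and 9.50% lower. The shares were 15.7% and 12.4% for cisplatin and 8.62% and 11.3% between the drugs. The list held 0 calls for oxaliplatin without any 1 of the 6 libraries. With cisplatin 0 were called by DESeq2, 3 had an unadjusted p under 0.05, edgeR called 2, and 2 were called without control replicate 1. Between the drugs Rasa1 and Nf1 were higher with oxaliplatin, by 0.33 ± 0.08 and 0.29 ± 0.09. Their differences from control were 0.16 and 0.11 with oxaliplatin and -0.17 and -0.18 with cisplatin, none of them called by DESeq2, while edgeR called Rasa1 with either drug. Without cisplatin replicate 1 the list held 0 calls between the drugs, and without oxaliplatin replicate 1 it held 1. Il17rd, a receptor that restrains growth factor signalling, differed by -0.54 ± 0.27 for oxaliplatin and -0.60 ± 0.27 for cisplatin, Socs3 by 0.18 ± 0.10 for oxaliplatin and Pebp1 by 0.13 ± 0.07 for cisplatin, none of them called by DESeq2, while edgeR called Il17rd with either drug and Socs3 with oxaliplatin. The list medians were 0.02 and -0.03.

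**Figure D4:**
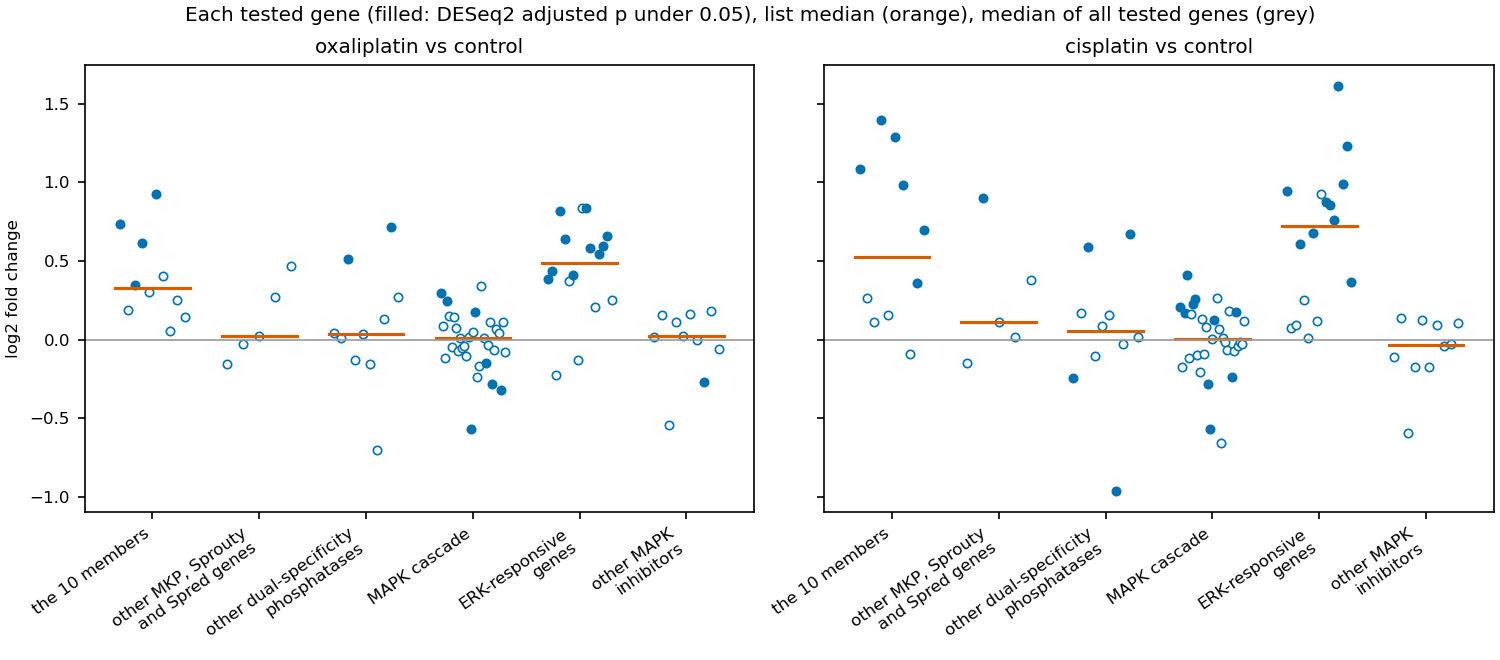
Log2 fold change (vertical axis) of each tested gene of the 10 members and of 5 further lists (horizontal axis), filled where the DESeq2 adjusted p was under 0.05, for oxaliplatin and cisplatin against control. Orange bars are list medians and the grey line is the median of all tested genes, and the medians of the 10 members (0.33 and 0.53) and of the ERK-responsive genes (0.49 and 0.72) lie above it, while those of the cascade genes (0.01 and 0.00) lie on it.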

How the data were processed

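RNA-seq libraries of TRAMP-C2 cells were analysed, 2 each of control, oxaliplatin and cisplatin cells, grouped and numbered by the sample labels. The authors deposited expected counts per gene from RSEM (1.3.0) after alignment with STAR (2.5.3a) to GRCm38.p6, per the submitters' processing notes. RSEM splits reads with several possible origins between genes. For in vitro data the methods of the study name a different counter. The gene annotation and the use of strand were not given in the sources used here, although the library kit was stranded.

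Expected counts were rounded. A gene was tested where 2 or more libraries had 10 or more counts (14956 genes). DESeq2 (1.42.0, R 4.3.3) was fitted once over all 6 libraries with group as the factor, since the study names DESeq2 and a threshold of 0.05. Two-sided Wald p-values received Benjamini-Hochberg adjustment per contrast, with independent filtering at 0.1 and unshrunken fold changes. Symbols came from GENCODE M21 (54409 identifiers matched, 53229 with the same version). The 14 alternatives were edgeR (4.0.16) with TMM scaling, DESeq2 with TMM or total-count scaling, 2 other count filters, independent filtering switched off, the replicate number as a block, a fit restricted to the 4 libraries compared, and omission of each of 6 libraries. A group left with 1 library was assumed to vary like the others. The script was tested on simulated data with 200 changed genes.

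The members and all gene lists were chosen with earlier results of these data known. All 10 members and all analysed paralogs are named, and from each further list up to 4 genes per drug with the smallest adjusted p and a mean normalised count of 100 or more. Some genes of the context and marker lists are not reported here. Genes outside this rule are stated to have been named after their values were seen. Replicate libraries differed by more than counting noise (mean chi-square per gene 2.80 to 4.62).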

Additional observations from a re-analysis of the deposited data

How the results depend on the processing

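Over 10 genes, 3 contrasts and 14 alternatives, 381 results kept their direction and side of the threshold, 31 lost a call, 7 gained one and 1 changed sign. The sign change was Spry4 in oxaliplatin against control without control replicate 1, at -0.0027 (up to 0.31 without control replicate 2), with 87.2 and 108 normalised counts in control. Between the drugs, the members called numbered 4, but 7 by edgeR, 1 with the replicate block and 1 to 4 with a library left out. Against control, members called were 4 for oxaliplatin (4 to 5 with a library left out) and 6 for cisplatin (4 with any library left out).

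Over all tested genes, calls for oxaliplatin against control were 3028, 4618 by edgeR, 1958 with the replicate block and 1213 to 2159 with a library left out. For cisplatin against control they were 4203, and 2089 to 3021 with a library left out. Between the drugs they were 2977, 4773 by edgeR, 1861 with the replicate block and 1184 to 2453 with a library left out. Fits without a library rest on fewer samples. The cause of the difference between DESeq2 and edgeR was not tested.

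Same-numbered libraries did not deviate together from their group means (correlation over 10731 genes 0.07 for control and oxaliplatin, -0.05 for control and cisplatin, -0.19 for the drugs), so the replicate numbers were not taken to pair the samples, and a call lost under the replicate block is not described as a weaker effect. With 2 libraries per group, a difference in low genes such as Spry4 and Dusp8 was estimated with an SE of 0.22 to 0.27.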
